A study of Mus musculus with 2 samples.

Results

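Small nucleolar RNAs (snoRNAs) and small Cajal body RNAs were read from total RNA sequencing of the adrenal gland of 2 mice. The genes were taken by symbol, with Snora naming the H/ACA class, Snord the C/D class and Scarna the Cajal body class. A gene also had to average at least 1 TPM, a relative abundance adjusted for length, over both mice in the deposited gene tables. This rule kept 45 of the 150 genes with such symbols, among 55536 genes in all: 30 H/ACA, 8 C/D and 7 Cajal body genes. Because TPM chose them, their levels are a description and carry no test.

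Both mice were adult females of 8 to 10 months from a cross labelled 5xFAD and CAST, supplied by The Jackson Laboratory. 5xFAD is a transgenic line used as a model of Alzheimer's disease, and CAST is an inbred strain derived from wild mice. All samples belong to this 1 group, so no genotype, sex or age was compared, and carriage of the transgenes was left unexamined. The labels number the samples as replicates 2 and 1 (mouse 2 and mouse 1 here) but give them 1 shared donor entry, so their being separate animals rests on the replicate number. Each library was made from 300 ng of RNA with ERCC spike-in RNA, after reduction of ribosomal RNA, with a kit that keeps strand. The depth in the gene tables was 32192201 expected counts for mouse 2 and 36558609 for mouse 1. All 9 adrenal cortex and medulla markers checked were above 1 TPM in both mice, among them the cholesterol transporter gene Star at 5742 TPM in mouse 2 against 5127 TPM in mouse 1 and the steroid enzyme gene Hsd3b1 at 5673 TPM in mouse 2 against 5098 TPM in mouse 1.

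C/D and H/ACA snoRNAs work in the nucleolus inside protein particles and pair with ribosomal RNA, where C/D RNAs direct ribose methylation and H/ACA RNAs direct the change of uridine to pseudouridine. A few are needed for cutting the ribosomal RNA precursor instead. Cajal body RNAs carry the same boxes and guide the same changes on the small nuclear RNAs of the spliceosome. In mammals most of these RNAs are cut out of introns of longer host genes, many of which encode ribosomal proteins or other parts of the translation machinery, and a few are transcribed from their own promoters.

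The sequences below belong to the members on which the results turn and come from the GENCODE M21 transcripts on mm10, written 5′ to 3′ as DNA. In the C/D genes and Scarna6 the capitals mark a C box, TGATGA, within the first 25 bases and a D box, CTGA, within the last 15. In Snord22 only the D box is marked, because the exact letters TGATGA were not found in that window. Snord15b (chr7:99479563-99479707, minus strand) and Snord15a (chr7:99482785-99482932, minus strand) lie in the ribosomal protein gene Rps3, where Snord15a is intronic in every transcript and Snord15b overlaps an exon in 1 of 5. Snord17 (chr2:144265979-144266216, minus strand) lies in an intron of Snx5, and Snord22 (chr19:8725866-8725991, plus strand) lies in Snhg1, a non-coding host gene. Scarna6 (chr1:87784556-87784820, plus strand) lies in an intron of the autophagy gene Atg16l1.
Snord15b: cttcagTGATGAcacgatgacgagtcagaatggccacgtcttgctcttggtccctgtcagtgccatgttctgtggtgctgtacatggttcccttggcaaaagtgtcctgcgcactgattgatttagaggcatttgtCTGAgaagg
Snord15a: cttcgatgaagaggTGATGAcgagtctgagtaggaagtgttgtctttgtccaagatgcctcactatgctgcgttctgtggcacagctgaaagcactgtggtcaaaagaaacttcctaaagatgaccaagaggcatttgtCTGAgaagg
Snord17: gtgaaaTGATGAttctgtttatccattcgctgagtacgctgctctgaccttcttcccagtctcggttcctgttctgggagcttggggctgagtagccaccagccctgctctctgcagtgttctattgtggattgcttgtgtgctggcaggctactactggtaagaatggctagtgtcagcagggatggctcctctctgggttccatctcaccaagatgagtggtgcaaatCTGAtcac
Snord22: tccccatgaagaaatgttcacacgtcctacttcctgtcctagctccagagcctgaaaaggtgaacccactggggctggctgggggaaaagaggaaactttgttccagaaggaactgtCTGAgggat
Scarna6: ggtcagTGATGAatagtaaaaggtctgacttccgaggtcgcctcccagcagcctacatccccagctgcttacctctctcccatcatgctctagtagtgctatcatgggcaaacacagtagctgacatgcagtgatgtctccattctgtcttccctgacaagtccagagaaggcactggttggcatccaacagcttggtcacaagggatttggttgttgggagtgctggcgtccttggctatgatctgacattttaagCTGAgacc

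Snora73b (chr4:132352322-132352526) and Snora73a (chr4:132352775-132352979) lie on the minus strand inside Rcc1 and Snhg3, and their capitals mark the 7 of 205 bases at which they differ.
Snora73b: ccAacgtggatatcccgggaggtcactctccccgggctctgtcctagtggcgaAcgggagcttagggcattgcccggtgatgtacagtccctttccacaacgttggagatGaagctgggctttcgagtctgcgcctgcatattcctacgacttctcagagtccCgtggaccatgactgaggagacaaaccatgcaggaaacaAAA
Snora73a: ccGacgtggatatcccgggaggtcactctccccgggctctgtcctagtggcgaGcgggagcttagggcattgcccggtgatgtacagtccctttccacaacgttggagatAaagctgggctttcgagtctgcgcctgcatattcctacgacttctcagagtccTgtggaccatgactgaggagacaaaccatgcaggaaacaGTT
The next set shows the ACA box in capitals, exactly 3 bases before the 3′ end. Snora23 (chr7:110046364-110046547, plus strand) lies in an intron of the importin gene Ipo7, Snora57 (chr19:8888538-8888685, minus strand) has no annotated host on its strand, and Scarna13 (chr12:105031075-105031349, minus strand) lies in an intron of Snhg10.
Snora23: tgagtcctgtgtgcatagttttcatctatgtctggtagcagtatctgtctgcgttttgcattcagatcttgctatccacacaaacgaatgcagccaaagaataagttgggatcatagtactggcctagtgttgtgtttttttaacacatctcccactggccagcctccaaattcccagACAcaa
Snora57: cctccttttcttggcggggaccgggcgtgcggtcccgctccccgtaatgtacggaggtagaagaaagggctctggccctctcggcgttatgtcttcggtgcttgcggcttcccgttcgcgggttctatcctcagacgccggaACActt
Scarna13: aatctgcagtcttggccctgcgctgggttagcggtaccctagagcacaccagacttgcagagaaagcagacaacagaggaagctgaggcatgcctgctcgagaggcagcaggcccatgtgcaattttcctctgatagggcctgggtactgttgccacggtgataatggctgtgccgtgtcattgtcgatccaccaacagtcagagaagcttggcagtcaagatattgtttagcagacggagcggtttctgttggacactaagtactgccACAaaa
Snora43 is annotated as a pair of genes, and the capitals in Snora43-202 (chr2:26637847-26637985, minus strand) mark the stretch that is the whole of Snora43-201. Of Scarna2 (chr3:108554338-108554751, minus strand) only positions 315 to 414 are shown, with the D box in capitals.
Snora43-202: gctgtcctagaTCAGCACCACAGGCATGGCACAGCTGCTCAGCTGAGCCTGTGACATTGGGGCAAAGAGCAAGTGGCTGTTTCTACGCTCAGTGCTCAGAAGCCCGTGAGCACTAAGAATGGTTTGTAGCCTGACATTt
Scarna2: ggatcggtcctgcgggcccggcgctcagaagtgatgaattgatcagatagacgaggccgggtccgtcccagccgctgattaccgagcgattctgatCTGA

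The boxes followed the class given by the symbol. Only the strand of the RNA was searched, and a match describes letters, not a bound site. TGATGA near the 5′ end together with CTGA near the 3′ end stood in 6 of the 8 C/D members, in 2 of the 7 Cajal body members (Scarna6 and Scarna10) and in 0 of the 30 H/ACA members, against 0.168% of 18412 other GENCODE transcripts of over 100 and up to 414 bases. The 2 C/D members without that C box were Snord22 and Snord118, and both held the D box. ACA at exactly 3 bases before the 3′ end stood in 24 of 30 H/ACA members, in 2 Cajal body members (Scarna13 and Scarna8) and in 0 C/D members, against 2.79% of the other transcripts. The H box, ANANNA, was found in all 45 members but also in 95.2% of the other transcripts, so it separated nothing at these lengths. Snora73a and Snora73b were 96.6% identical, Scarna3a and Scarna3b 85.7%, and Snord15a and Snord15b 63.2%.

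**Figure D1:**
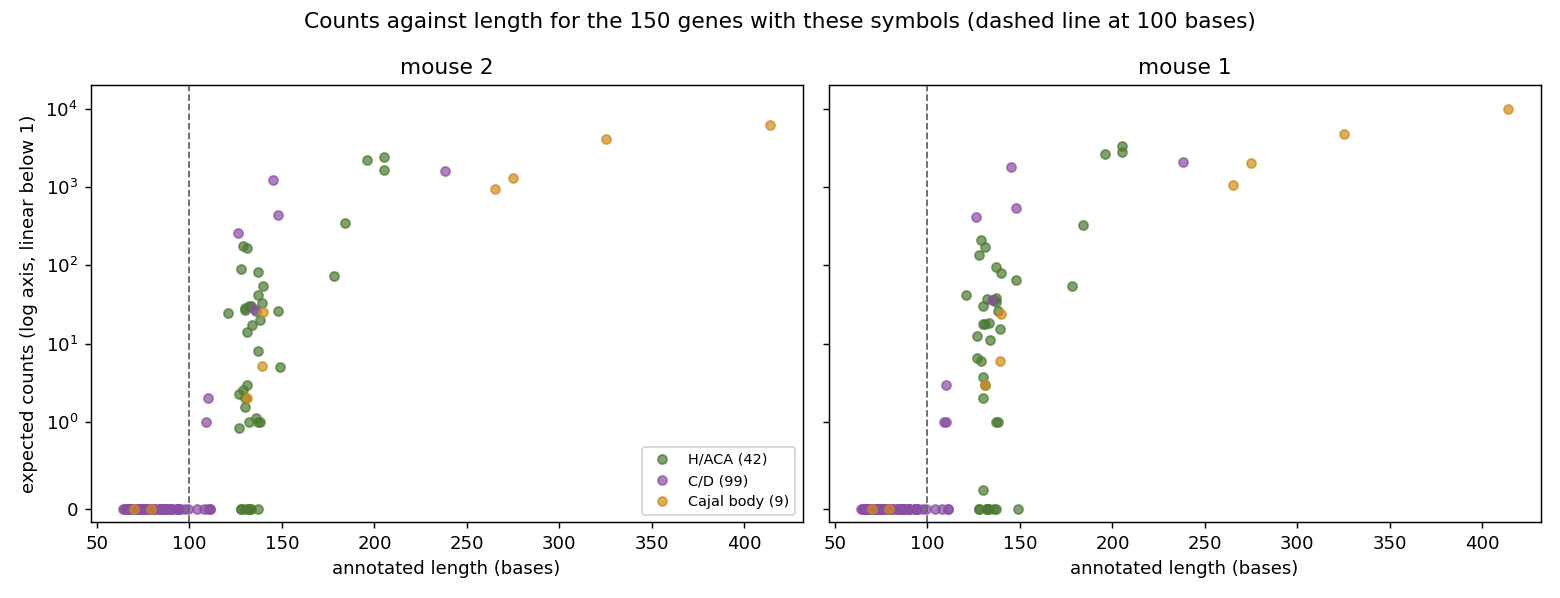
Expected counts (vertical, log axis that is linear below 1) against annotated length in bases (horizontal) for the 150 genes with these symbols, in mouse 2 (left) and mouse 1 (right), coloured by class. Every gene left of the dashed line at 100 bases sits at 0, and 87 of those 89 genes are C/D.

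Length decided which genes could hold a count at all. In the gene tables the effective length, the number of start positions a read can have, was the annotated length minus 100 bases, and it was 0 for genes of up to 100 bases. All 2452 genes of that size in the tables, of whatever kind, held 0 counts in both mice. Among the 150 genes, 89 were of that size: 87 of the 99 C/D genes, 2 of the 9 Cajal body genes and 0 of the 42 H/ACA genes. For these 89 genes a count of 0 is fixed by the length and is no measurement. The 4 short genes inside Gas5, a non-coding host at 82.5 TPM in mouse 2 against 78.2 TPM in mouse 1, are of this kind, and 2 of them are shown with the boxes in capitals.
Snord47: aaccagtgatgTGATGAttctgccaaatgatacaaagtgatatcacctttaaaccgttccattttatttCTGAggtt
Snord80-201: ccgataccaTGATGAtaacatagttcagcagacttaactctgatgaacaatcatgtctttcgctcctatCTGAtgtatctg
The 2 genes run from chr1:161038082-161038158 and chr1:161037601-161037681 on the plus strand and are 77 and 81 bases long. Other hosts of several such genes were Snhg14 with 17, and Hspa8 and Rpl23a with 3 each, and 0 of these genes were members, although Rpl23a stood at 497 TPM in mouse 2 against 500 TPM in mouse 1. The count of 8 C/D members is therefore a count of long C/D genes.

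Among the 61 genes of over 100 bases, 45 reached 1 TPM, which is 73.8%. The same held for 440 of 10246 other genes of over 100 and up to 414 bases, or 4.29%. All 7 Cajal body genes of that size were members, as were 30 of 42 H/ACA genes and 8 of 12 C/D genes. Of the 16 others, 11 held 0 counts in both mice, among them Snord13, a C/D gene whose RNA is known for a role in 18S ribosomal RNA. A count of 0 allows up to 3 counts per library.

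The 45 members held 23708 counts in mouse 2 and 32784 in mouse 1. Mouse 2 thus had 0.0736% of its gene counts in them, with a 95% Wilson interval of 0.0727 to 0.0746. Mouse 1 had 0.0897%, with an interval of 0.0887 to 0.0907. These intervals cover counting error only. Per length the share was larger, at 0.631% of all TPM in mouse 2 and 0.691% in mouse 1. A large part of all TPM lay in 12 listed small structural RNAs outside these classes, which summed to 429587 TPM in mouse 2 against 471842 TPM in mouse 1. TPM is relative, so the TPM of every other gene depends on that sum. The order of the classes depended on the scale. Cajal body members held 53.2% of the members' counts in mouse 2 and 53.8% in mouse 1, but only 25.3% of their TPM in mouse 2 and 25.4% in mouse 1. H/ACA members held 31.8% of the counts in mouse 2 and 31.3% in mouse 1, and 46.0% of the TPM in mouse 2 and 44.8% in mouse 1. The 5 members with most counts held 69.7% of the members' counts in mouse 2 and 71.0% in mouse 1. A lower level in a whole tissue can mean fewer cells of a type or less RNA per cell, which cannot be told apart here.

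**Figure D2:**
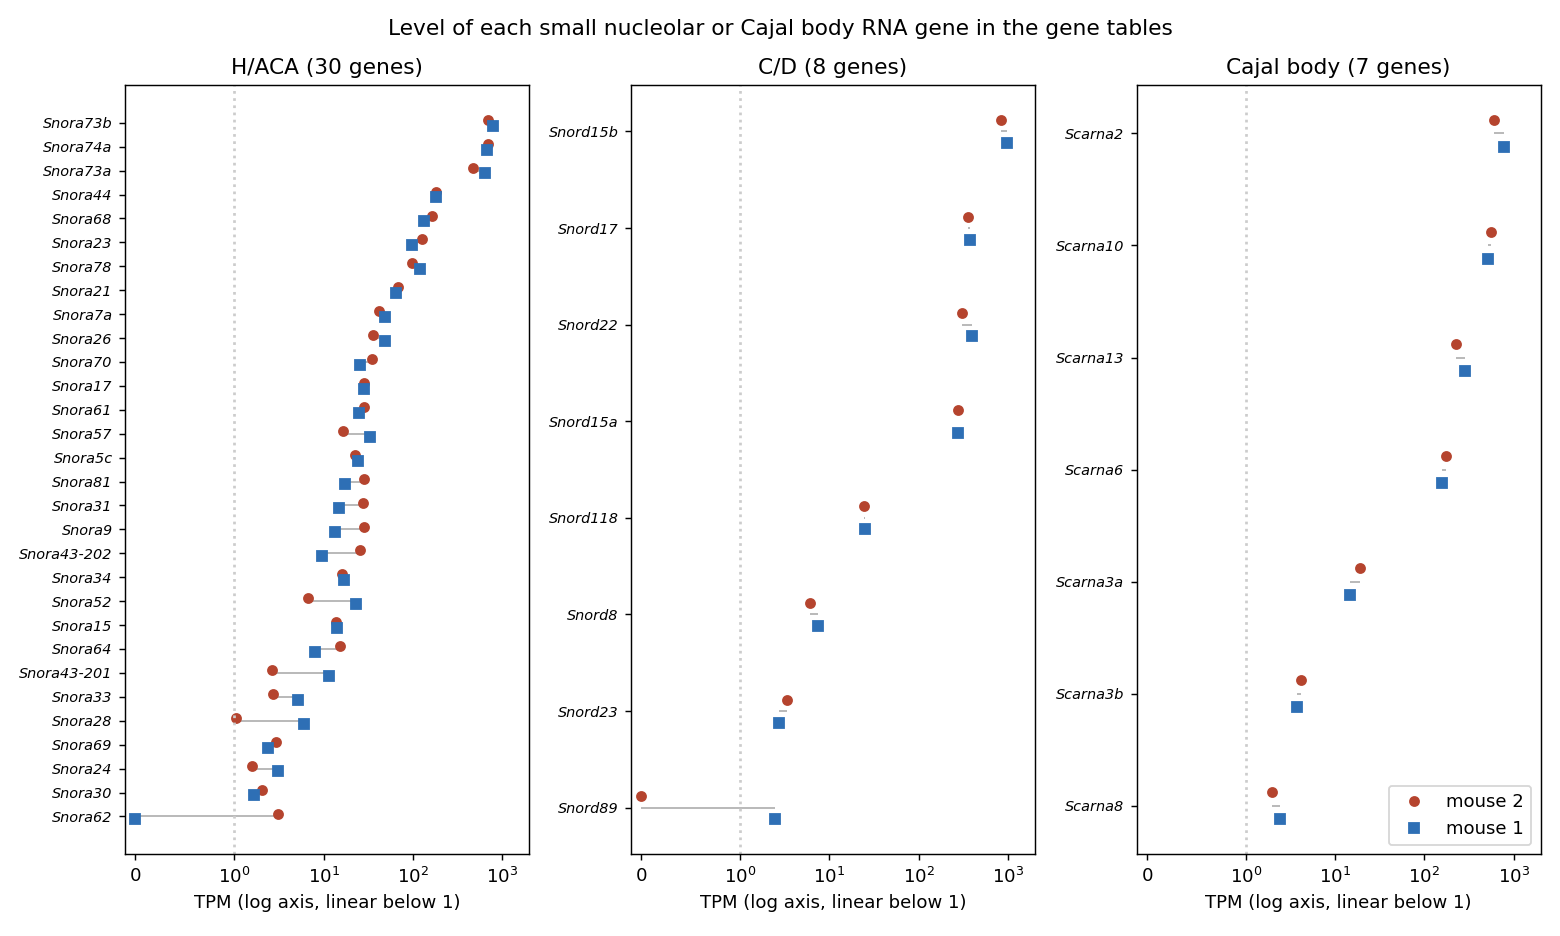
TPM in the gene tables (horizontal, log axis that is linear below 1) for each of the 45 members, by class, with circles for mouse 2 and squares for mouse 1. The levels run over nearly the whole axis within each class, and 2 members, Snora62 and Snord89, are at 0 in 1 mouse.

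Among the H/ACA RNAs, 3 stood far above the rest: Snora73b, Snora74a and Snora73a. Snora73b and Snora73a are the U17 or E1 RNA, which does not act as a modification guide and is known from frog oocytes to be needed for cutting the precursor of 18S ribosomal RNA. Snora73b stood at 693 TPM (2391 counts) in mouse 2 against 781 TPM (3339 counts) in mouse 1. Snora73a stood at 471 TPM (1625 counts) in mouse 2 against 645 TPM (2757 counts) in mouse 1. Since the pair differs at 7 bases, the split of reads between them is a model estimate, with a posterior SD of 10.6 to 14.6 counts. Their sum was 4016 counts in mouse 2 and 6095 in mouse 1. Snora74a, the U19 RNA, stood at 695 TPM in mouse 2 against 681 TPM in mouse 1.

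The next H/ACA members were lower by several fold and are guides of ribosomal RNA positions. Snora44 stood at 182 TPM in mouse 2 against 180 TPM in mouse 1. Snora68 stood at 165 TPM in mouse 2 against 134 TPM in mouse 1. Snora23 stood at 126 TPM in mouse 2 against 96.5 TPM in mouse 1. The gene Snora78 was at 97.8 TPM in mouse 2 against 119 TPM in mouse 1, so the order of Snora23 and Snora78 differed between the mice. Snora21, Snora7a and Snora26 averaged 65.6 ± 2.63, 44.8 ± 5.04 and 42.0 ± 8.72 TPM (SD, n = 2). The other 20 H/ACA members averaged between 1.55 TPM (Snora62) and 29.8 TPM (Snora70), and the class median was 23.1 TPM.

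Among the C/D members 4 stood far above the others. Snord15b, the U15b guide of 28S ribosomal RNA, was at 833 TPM in mouse 2 against 970 TPM in mouse 1, the highest TPM of all members. Snord17, another 28S guide, was at 354 TPM in mouse 2 against 375 TPM in mouse 1. Snord22, the U22 RNA known from frog oocytes to be needed for 18S ribosomal RNA, was at 303 TPM in mouse 2 against 391 TPM in mouse 1. Snord15a was at 274 TPM in mouse 2 against 279 TPM in mouse 1. Snord118 is the U8 RNA, transcribed from its own promoter and known from frog oocytes to be needed for 5.8S and 28S ribosomal RNA. It stood well below these, at 24.3 TPM (28 counts) in mouse 2 against 25.3 TPM (36 counts) in mouse 1. Snord8, Snord23 and Snord89 rest on 0 to 3 counts a library. Their effective length is 9 or 10 bases, so 1 count of Snord23 equals 3.38 TPM in mouse 2 against 2.73 TPM in mouse 1, above the threshold of 1 TPM.

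Cajal body members were the longest class by median, at 265 bases with a range of 131 to 414, and 4 of 7 were abundant. Scarna2, known in human cells as a guide of ribose methylation on U2 small nuclear RNA and transcribed on its own, held 6190 counts in mouse 2 (exact Poisson 95% interval 6037 to 6346) and 9847 in mouse 1 (9653 to 10043), the most of any member. Its level was 600 TPM in mouse 2 against 770 TPM in mouse 1. Scarna10, the U85 RNA with both box types that guides changes on U5 small nuclear RNA, stood at 559 TPM in mouse 2 against 511 TPM in mouse 1. Scarna13, the U93 RNA, stood at 227 TPM in mouse 2 against 286 TPM in mouse 1. Scarna6, the U88 RNA, stood at 173 TPM in mouse 2 against 156 TPM in mouse 1. Scarna3a, Scarna3b and Scarna8 were lower, averaging 16.9 ± 3.03, 3.94 ± 0.226 and 2.17 ± 0.297 TPM (SD, n = 2).

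The rank of a short gene depended on how length entered. On the deposited scale 1 count of Snord15b equals 0.676 TPM in mouse 2 against 0.546 TPM in mouse 1, while 1 count of Scarna2 equals 0.0969 TPM in mouse 2 against 0.0782 TPM in mouse 1. Snord15b ranked 1 of 45 by deposited TPM, 6 when TPM was recomputed on the full length and 8 by counts. Scarna2 ranked 4 by deposited TPM and 1 on both other scales. With full lengths Snord15b stood at 333 TPM in mouse 2 against 394 TPM in mouse 1, and Scarna2 at 587 TPM in mouse 2 against 764 TPM in mouse 1. Over all members the median was 8.35 TPM with full lengths and 24.6 TPM as deposited.

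Near the threshold membership rested on few counts. Just inside it were Snora30 at 2.03 TPM in mouse 2 against 1.64 TPM in mouse 1 (2 counts in each), Snora62 at 3.10 TPM (5 counts) in mouse 2 and 0 in mouse 1, and Snord89 at 0 in mouse 2 and 2.46 TPM (1 count) in mouse 1. Just outside were Snora2b and Snora47, each with 1 count in each mouse and means of 0.740 and 0.725 TPM. Snora41 and Snora16a-201 followed at a mean of 0.475 TPM each, from about 1 count in mouse 2 and 0 in mouse 1.

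The second question the 2 libraries allow is how far they differ in these RNAs. On counts scaled between the libraries, most abundant members were lower in mouse 2, by less than 2-fold. Among the 33 members with a mean of at least 10 counts, the median log2 ratio of mouse 2 over mouse 1 was -0.20, against -0.0011 over all 17666 genes tested and -0.10 over 335 other genes of over 100 and up to 414 bases. The ratio was below 0 in 23 of the 33 members, or 69.7%. The share was 50.2% over all genes and 63.6% over those 335 other genes of like length. Those 335 were set apart by symbol only and include snoRNA genes under other names, such as Gm22988 and Rnu3b4. What this lean shares with length or with RNA class was not tested. Ratios were scaled by edgeR's TMM factors with a prior count of 2, and they differ from ratios of the deposited TPM. On log2(TPM + 0.1) the median of all these genes was 0.15, the median member stood at -0.02, and 17 of 33 members lay below 0 and 22 below the median of all genes. Levels in TPM and the ratios below are therefore on different scales. With 1 library a side the differences have no replicate check, and p-values come from an exact two-sided binomial test on the reads, with Benjamini-Hochberg adjustment over all genes tested, which compares these libraries and not a condition.

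By that test 10 members were lower in mouse 2 (the share called over all genes was 11.0%) and 1 was higher (10.4%). Of the 335 other genes of this length, 88 passed as lower and 31 as higher. Among the 15 members with a mean of at least 100 counts, 13 lay below 0 (49.0% of 12481 genes with as many counts), 8 passed as lower (13.0%) and 0 as higher (13.2%). On the deposited TPM, 9 of these 15 lay below 0 and 12 below the median of all genes. At 2-fold, 2 members were lower in mouse 2 (1.81% of all genes) and 1 was higher (1.15%).

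**Figure D3:**
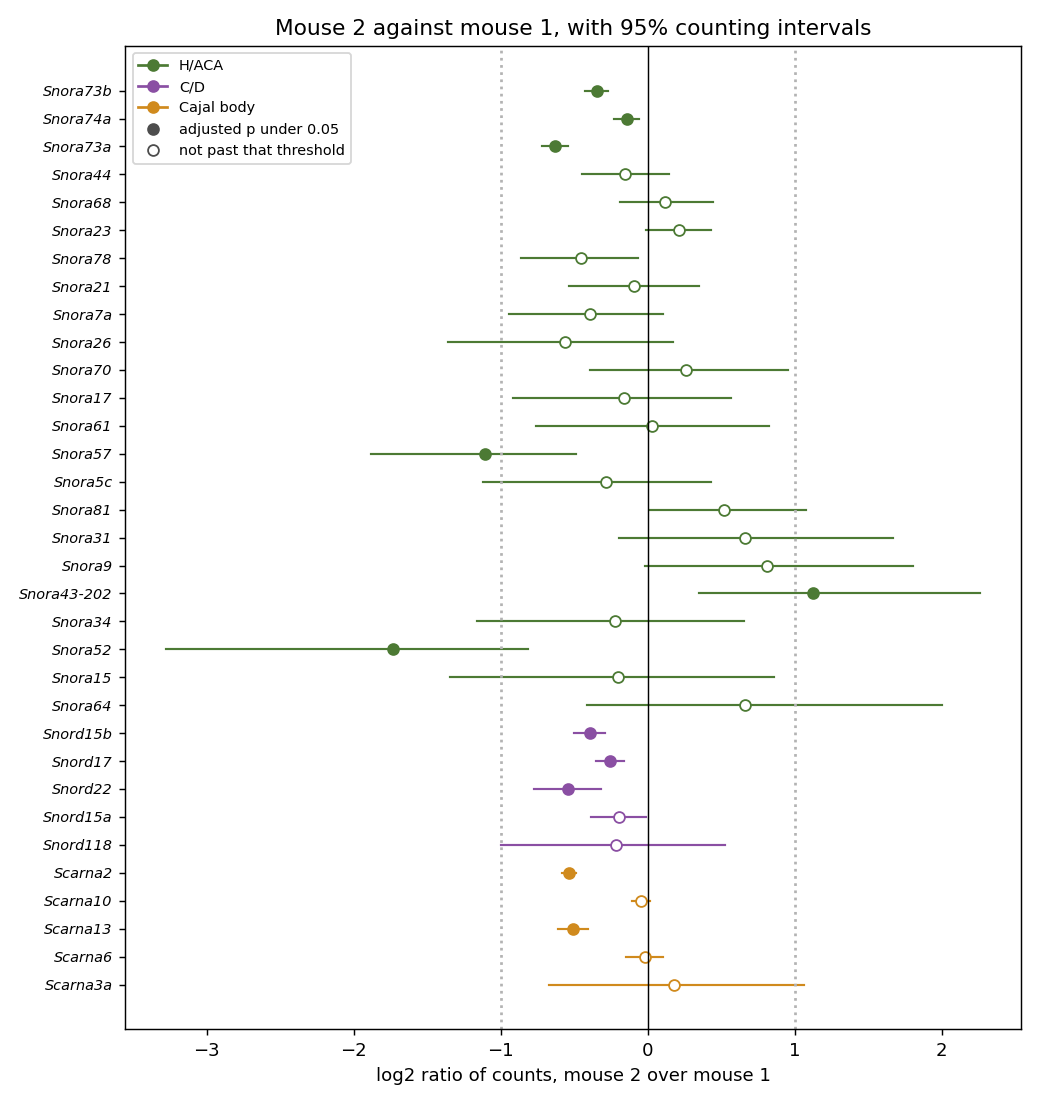
Log2 ratio of counts, mouse 2 over mouse 1 (horizontal), for the 33 members tested, with 95% intervals from counting error. Filled points passed the binomial test at an adjusted p under 0.05, and dotted lines mark 2-fold. Most filled points lie between -0.14 and -0.63, and the 3 members past 2-fold have wide intervals.

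Of the ribosomal RNA cleavage factors, Snora73a had a log2 ratio of -0.63 (95% interval -0.72 to -0.54) and Snora73b one of -0.35 (-0.42 to -0.27). Snord22 stood at -0.54 (-0.77 to -0.31), with 259 counts in mouse 2 and 414 in mouse 1. Snord118, the U8 RNA, stood at -0.21 (-0.99 to 0.53) and did not pass, with 28 counts in mouse 2 and 36 in mouse 1. Among the guides, Snord15b stood at -0.39 (-0.50 to -0.29) and Snord17 at -0.26 (-0.35 to -0.16). Snora74a stood at -0.14, with an adjusted p of 0.00454 from the exact binomial test that was lost when libraries were scaled by total counts, and on the deposited TPM it was higher in mouse 2, at 0.031. Snord15a, from the same host as Snord15b, stood at -0.20 and did not pass, with an adjusted p of 0.121 from the exact binomial test.

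Of the abundant Cajal body members, 2 passed as lower and 2 did not pass. Scarna2 stood at -0.54 (-0.58 to -0.49) and Scarna13 at -0.51 (-0.61 to -0.41). Scarna10, with 4135 counts in mouse 2 and 4682 in mouse 1, stood at -0.04 (-0.11 to 0.02), and Scarna6, with 940 counts in mouse 2 and 1047 in mouse 1, at -0.02 (-0.15 to 0.11). The signs of Scarna10 and Scarna6 turned when libraries were scaled by total counts and on the deposited TPM. In the second quantification described below Scarna10 passed as lower, at -0.23, and Scarna6 did not pass, at -0.11. The intervals of Scarna2 and Scarna13 did not meet those of Scarna10 and Scarna6 in the gene tables, and the difference among them was not tested.

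The members past 2-fold were among the less abundant ones. Snora57 held 26 counts in mouse 2 and 64 in mouse 1, a log2 ratio of -1.11 (-1.88 to -0.49). It overlaps Lbhd1 on the other strand, and whether the authors' counting used strand is not given in the sources used here. The same limit holds for Snora73a, Snora73b, Snora23, Snora78 and Snord8. Each of them also overlaps an annotated gene on the other strand, which for Snora78 is Rps2. Snora52 held 8.12 counts in mouse 2 and 34.5 in mouse 1, a log2 ratio of -1.73 (-3.28 to -0.81). Its whole sequence lies inside a transcript of its host Rplp2, and its posterior SD was 6.49 counts in mouse 2 and 9.67 in mouse 1. Snora43-202 held 32.7 counts in mouse 2 and 15.4 in mouse 1, a log2 ratio of 1.12 (0.35 to 2.26). Its partner Snora43-201, whose sequence it contains, held 2.31 counts in mouse 2 and 12.6 in mouse 1, and their sum was 35 counts in mouse 2 and 28 in mouse 1. Without the members that have a near-identical copy or lie inside another transcript, 11 members were left, of which 3 passed as lower and 0 passed as higher or at 2-fold.

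Other values moved in the same libraries. For the counts below, 11.0% of all genes tested passed as lower in mouse 2 and 10.4% as higher. At 2-fold, 1.81% of all genes were lower and 1.15% higher. Small structural RNAs outside these classes had a median log2 ratio of -0.26 over 10 tested genes, 8 of them below 0, and 5 passed as lower. They include Rn7s1 and Rn7s2, nearly identical genes of the signal recognition particle RNA, both at -0.29. This pair was given equal counts and TPM in each mouse, so the list counts the same value more than once. Rmrp, the RNA of a ribosomal RNA processing enzyme, stood at -0.87. The second quantification gave Rmrp 3503 TPM in mouse 2 against 3394 TPM in mouse 1, where the gene tables gave 3910 TPM in mouse 2 against 6320 TPM in mouse 1. The host genes of the members had a median of -0.03 over 35 tested genes, with 10 lower and 5 higher by the test. Of the 9 adrenal cortex and medulla markers, 8 lay below 0 and 7 passed as lower, with a median of -0.13. They include Pnmt, the adrenaline-forming enzyme gene, at -0.51 and Chga at -0.27, while Star passed as higher at 0.06. All 9 adipocyte markers passed as higher in mouse 2, with a summed level of 2706 TPM in mouse 2 against 1605 TPM in mouse 1. The highest were Cfd, at 754 TPM in mouse 2 against 533 TPM in mouse 1, and Fabp4, at 567 TPM in mouse 2 against 329 TPM in mouse 1. All 5 red blood cell genes tested passed as lower, at 409 TPM in mouse 2 against 747 TPM in mouse 1 for the 6 listed, with the globin genes Hba-a1 at -1.11, Hba-a2 at -1.06 and Hbb-bs at -0.99. The 10 immediate early genes lay below 0, at 282 TPM in mouse 2 against 477 TPM in mouse 1, and 9 passed as lower. Nr4a1 (-0.82) and Jun (-0.28) were the highest in level, and Fos (-3.15), Junb (-2.72) and Egr1 (-2.44) passed 2-fold. The part of these values in the members' ratios was not tested.

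Genes for the proteins that work with these RNAs were present at 1 TPM or more in both mice and differed by less than 2-fold, apart from Nopchap1, which was not found under that symbol and was not analysed here. By the binomial test, 11.0% of all genes passed as lower in mouse 2 and 10.4% as higher. The C/D particle is built on Fbl, the methyltransferase fibrillarin, with Nop56, Nop58 and Snu13. All 4 lay at 22.1 to 37.0 TPM, and only Fbl passed the test, at -0.18. The H/ACA particle is built on the pseudouridine synthase Dkc1 with Nop10, Nhp2 and Gar1. Nop10 was the highest at 43.3 TPM in mouse 2 against 39.7 TPM in mouse 1, and 1 of the 4, Nhp2, passed as lower at -0.25. Of the 9 other assembly factors, Ruvbl1 and Rpap3 passed as lower at -0.25 and -0.26, while Pih1d1 and Ruvbl2 were the highest in level at 22.7 ± 2.48 and 13.5 ± 2.73 TPM (SD, n = 2).

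Of 8 processing and cap factors, 1 passed, the cap methyltransferase gene Tgs1, higher at 0.21. The nuclease gene Xrn2 and Parn, a poly(A) trimming nuclease, were the highest of that list at 19.0 ± 2.06 and 13.5 ± 0.764 TPM (SD, n = 2). Of 6 Cajal body protein genes, Smn1 passed as higher at 0.29 and Coil, the coilin gene, as lower at -0.30. Nolc1 at 14.3 ± 1.84 TPM and Smn1 at 9.75 ± 2.63 TPM were the highest of them (SD, n = 2). Of 12 ribosomal RNA processing factors, Npm1 (-0.12) and Bop1 (-0.14) passed as lower, and Npm1 and Ncl had the highest levels, at 87.6 ± 2.64 and 69.6 ± 3.06 TPM (SD, n = 2). Among the 6 protein lists no gene reached 2-fold, and the list medians ran between -0.06 and 0.10. Of 15 tested genes listed as non-coding snoRNA hosts, Meg3 and Snhg11 passed as higher at 0.12 and 0.19. Snhg5, Snhg8 and Snhg15 passed as lower at -0.30, -0.44 and -0.75. Meg3 and Rian were the highest of that list, at 351 ± 46.3 and 193 ± 16.4 TPM (SD, n = 2). Under the host rule used here, Meg3, Rian and Snhg11 hosted none of the genes with Snora, Snord or Scarna symbols. Snhg7, also on that list, was not found under that symbol and was not analysed here.

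A host gene on the same strand contained 39 of the 45 members, in 36 hosts. The 6 without an annotated host were Scarna2, Snora17, Snord118, Snora57 and both Snora43 genes. This describes the annotation and not how they are transcribed. Of the 39, 21 overlapped no exon of their host and 18 overlapped an exon of at least 1 host transcript. In the transcripts where the member was intronic, it ended 50 to 100 bases before the next exon in 16 of 39. The host Snhg12 held 2 members, Snora44 and Snora61, of 5 genes with these symbols. Rcc1 held Snora73a and Snora73b, and Rps3 held Snord15a and Snord15b.

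**Figure D4:**
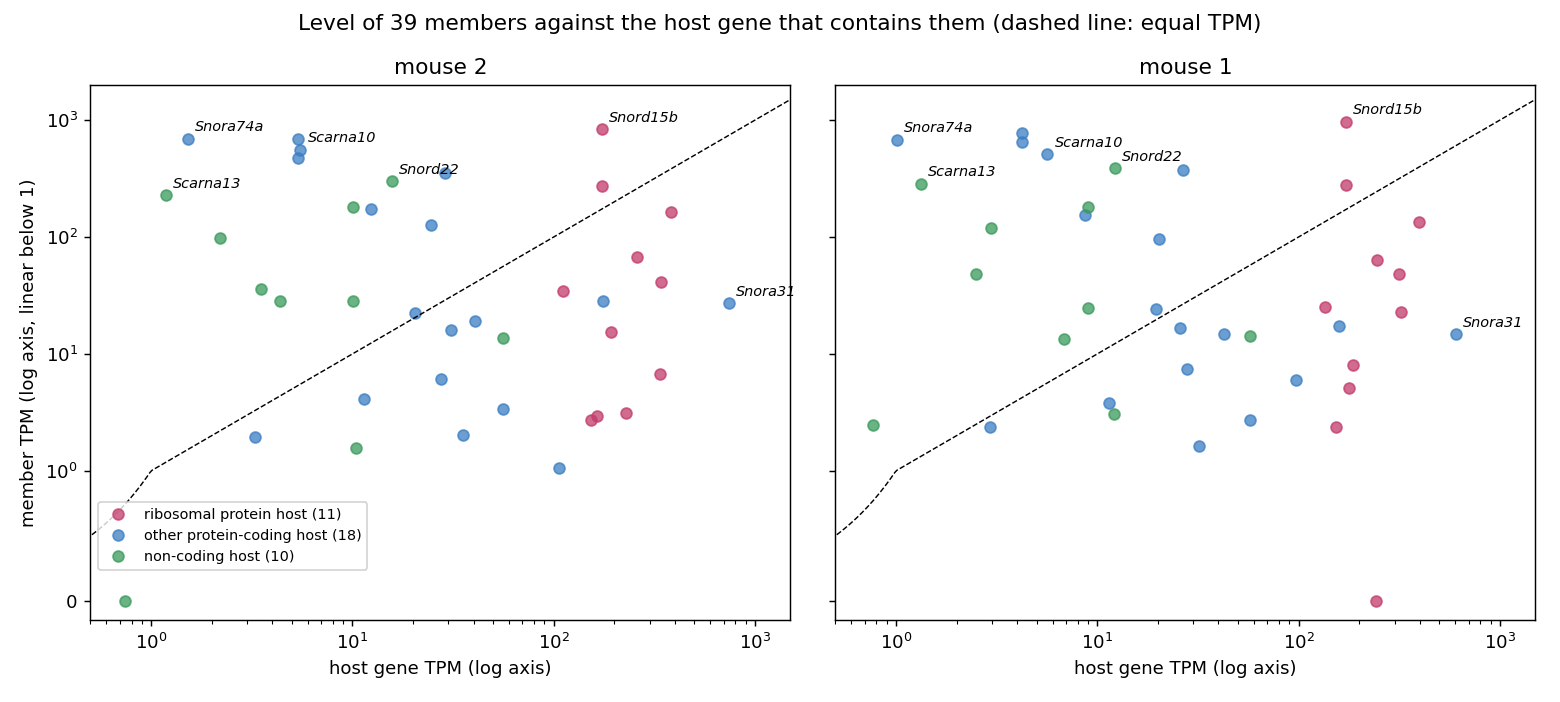
TPM of 39 members (vertical, log axis that is linear below 1) against TPM of the host gene (horizontal, log axis), in mouse 2 (left) and mouse 1 (right), coloured by kind of host. Members above the dashed line exceed their host, which 17 do in both mice, and members of ribosomal protein hosts lie mostly below it.

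Members often stood far above or below their host. The member exceeded its host in TPM in both mice in 17 of 39 cases. This was so for 2 of 11 members in ribosomal protein hosts, 8 of 18 in other protein-coding hosts and 7 of 10 in hosts annotated as non-coding. On the mean of both mice 18 members exceeded their host, and 14 did when TPM was recomputed on the full length. The ratios here use the deposited TPM and so depend on how length entered. The median ratio of member to host TPM was 0.121 in mouse 2 and 0.154 in mouse 1 for ribosomal protein hosts. It was 0.557 in mouse 2 and 0.733 in mouse 1 for other protein-coding hosts, and 8.30 in mouse 2 and 11.2 in mouse 1 for non-coding ones. The annotation counts the chaperonin gene Cct6a, host of Snora15, as non-coding. Snora73a and Snora73b were counted under the protein-coding Rcc1 but also lie in the non-coding Snhg3. The split by kind of host therefore depends on the host rule. With the longest containing gene as host, Snora74a stood highest above it, at 457 times the TPM of Gm28285 in mouse 2 and 674 times in mouse 1. It also lies in AC121821.1, at 5.63 TPM in mouse 2 against 6 TPM in mouse 1, and stood 123 times above that gene in mouse 2 and 113 times in mouse 1. Scarna13 stood 192 times above Snhg10 in mouse 2 and 215 times in mouse 1, where Snhg10 was at 1.18 TPM in mouse 2 against 1.33 TPM in mouse 1. Scarna10 stood 101 times above Ncapd2, a condensin gene, in mouse 2 and 90.5 times in mouse 1. Snora73b stood 129 times above Rcc1 in mouse 2 and 185 times in mouse 1, and the same bases also lie inside Snhg3, at 10.2 TPM in mouse 2 against 9.25 TPM in mouse 1.

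The opposite order was seen in abundant hosts. Snora31 was at 27.4 TPM in mouse 2 against 14.7 TPM in mouse 1, while its host Tpt1, the gene of the translationally controlled tumour protein, was at 741 TPM in mouse 2 against 606 TPM in mouse 1. Snora62, the E2 RNA, was at 3.10 TPM in mouse 2 and 0 in mouse 1, while its host Rpsa was at 230 TPM in mouse 2 against 244 TPM in mouse 1. Members that share a host differed as well. In Snhg12, Snora44 was at 182 TPM in mouse 2 against 180 TPM in mouse 1, and Snora61 at 28.6 TPM in mouse 2 against 24.8 TPM in mouse 1. In Rps3, Snord15b was at 833 TPM and Snord15a at 274 TPM in mouse 2, and at 970 TPM and 279 TPM in mouse 1.

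The authors also deposited a second quantification, made straight from the reads. In it nearly all short members were at 0, although the libraries were the same. Of the 45 members, 40 were at least 2-fold lower in the second quantification than in the gene tables (4.10% of 13524 genes at 1 TPM) and 0 were at least 2-fold higher (0.680%). Because the members were chosen by the gene-table TPM, nothing is read from these counts. In both mice 38 members held 0 counts in the second quantification. At least 1 TPM there was reached by 6 members.

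Those that remained were the long ones. Scarna2 stood at 537 TPM in the second quantification and 600 TPM in the gene table for mouse 2, and at 606 TPM in the second and 770 TPM in the gene table for mouse 1. Scarna10 stood at 459 TPM in the second quantification and 559 TPM in the gene table for mouse 2, and at 474 TPM in the second and 511 TPM in the gene table for mouse 1. For Snord17 the level was 351 TPM in the second and 354 TPM in the gene table for mouse 2, and 421 TPM in the second and 375 TPM in the gene table for mouse 1. For Scarna6 the level was 164 TPM in the second and 173 TPM in the gene table for mouse 2, and 157 TPM in the second and 156 TPM in the gene table for mouse 1. For Scarna13 the level was 135 TPM in the second and 227 TPM in the gene table for mouse 2, and 168 TPM in the second and 286 TPM in the gene table for mouse 1, so its second value was lower in both mice. Snora23, of 184 bases, was at 2.43 TPM in the second quantification for mouse 2 and 0 for mouse 1, against 126 TPM in the gene table of mouse 2 and 96.5 TPM in that of mouse 1.

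Most of these cases divided by length. In the second quantification none of 3851 transcripts of over 100 and up to 160 bases, of any kind, held a count in either mouse, and 35 members are of that size. Of 891 transcripts of over 160 and up to 200 bases, 46 held counts in mouse 2 and 39 in mouse 1, with a maximum of 4 counts in mouse 2 and 11.6 in mouse 1. Snora73a and Snora73b, at 205 bases, fell to 2 counts together in the second quantification for mouse 2 and 0 for mouse 1, against 4016 in the gene table of mouse 2 and 6095 in that of mouse 1, and no other annotated transcript contains either whole. What set their second value was not tested.

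**Figure D5:**
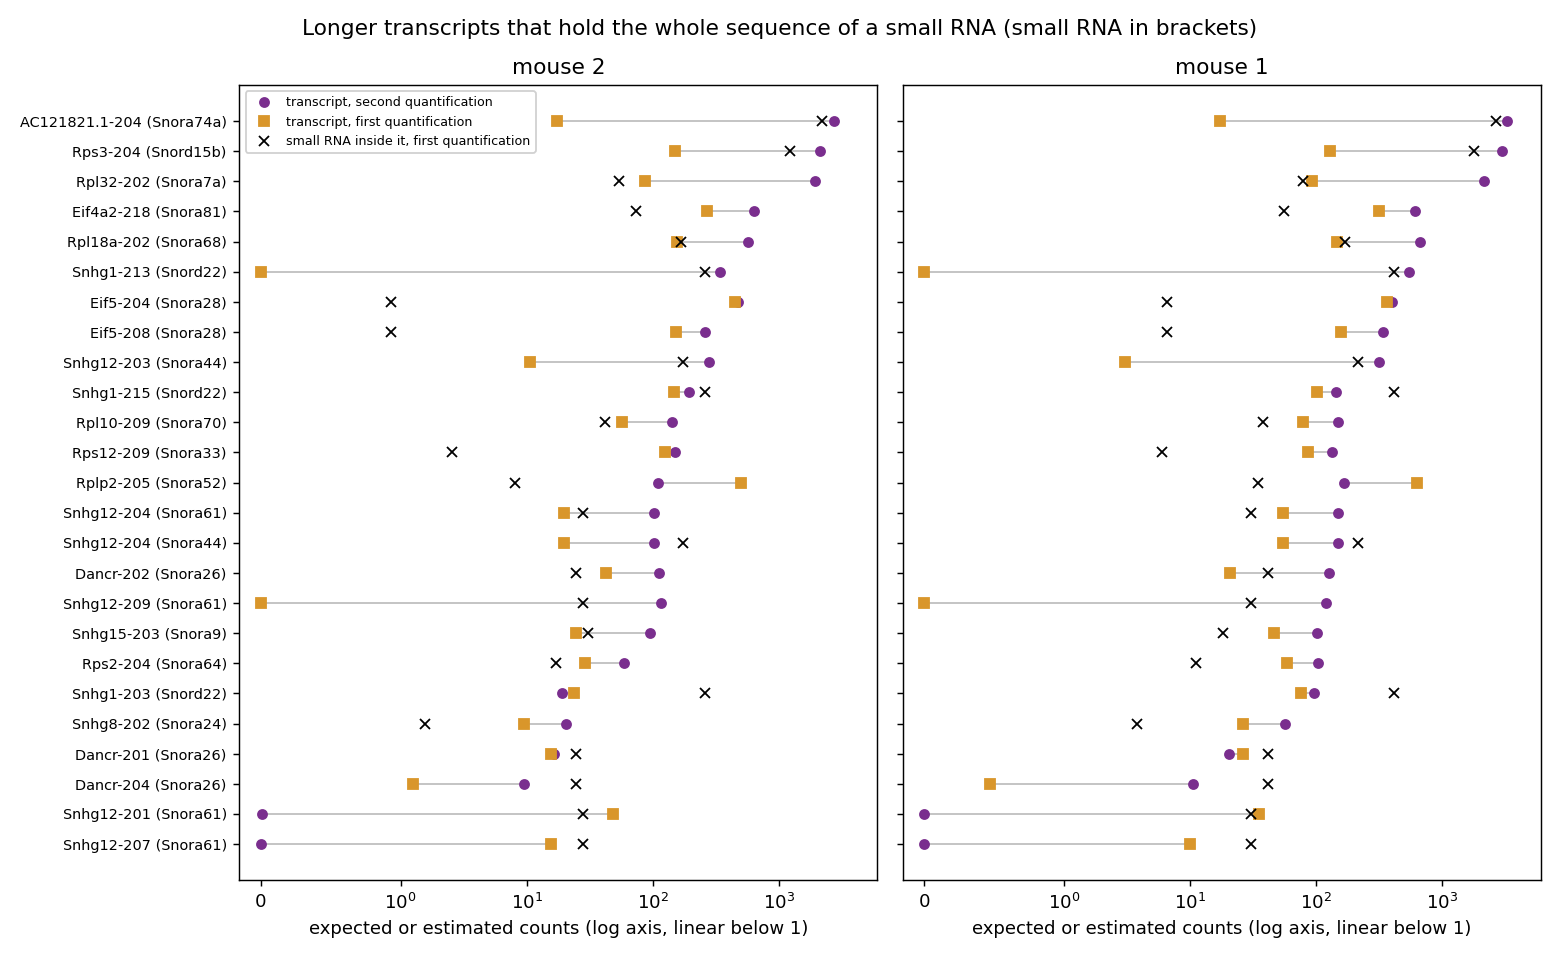
Counts (horizontal, log axis that is linear below 1) of the 24 longer transcripts that contain the whole sequence of a member (named in brackets), in mouse 2 (left) and mouse 1 (right), where 1 transcript with 2 members has a row for each. Circles are the second quantification of the transcript, squares its first, and crosses the first count of the small RNA, and the circle lies right of the square for 20 of 24 transcripts in each mouse.

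For 16 members the whole sequence also lies inside longer annotated transcripts, 24 in all, and these held more counts where the small RNA held none. In the second quantification the 24 transcripts held 10483 counts in mouse 2 and 12596 in mouse 1. In the first, transcript-level tables that go with the gene tables, they held 2350 counts in mouse 2 and 2469 in mouse 1, while the 16 members held 4309 in mouse 2 and 5557 in mouse 1. The transcript was higher in the second quantification for 20 of 24 in each mouse. The share over all other transcripts was not computed, so this count is not read as particular to transcripts that contain a member. Rps3-204, a retained-intron transcript that contains Snord15b, held 2129 counts in the second and 150 in the first for mouse 2, and 2956 in the second and 129 in the first for mouse 1. Snord15b itself held 0 in the second, and 1232 counts in mouse 2 and 1777 in mouse 1 in the gene tables.

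The same pattern was seen around other abundant members. AC121821.1-204, which contains Snora74a, held 2709 counts in the second quantification and 17.4 in the first for mouse 2, and 3250 in the second and 17.3 in the first for mouse 1. Snhg1-213, which contains Snord22, held 344 counts in the second and 0 in the first for mouse 2, and 549 in the second and 0 in the first for mouse 1. Snhg12-203, which contains Snora44, held 279 counts in the second and 10.7 in the first for mouse 2, and 312 in the second and 3.06 in the first for mouse 1. The sums did not match in every case: Rpl32-202 held 1931 counts in the second and 86.8 in the first for mouse 2, while Snora7a inside it held 54.2 in the gene table. Rplp2-205, around Snora52, went the other way, with 110 counts in the second and 503 in the first for mouse 2, and 166 in the second and 627 in the first for mouse 1. Levels of hosts with such transcripts, among them Snhg1 and Snhg12, therefore depend on which quantification is used.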

How the data were processed

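Total RNA of 2 adrenal glands was sequenced as 1 library each. The authors deposited, per the file headers, expected counts, TPM, FPKM and a posterior SD of the count per gene, made per the deposited notes from alignments to mm10 with GENCODE M21, with matching transcript tables. They also deposited a second table of estimated counts and TPM per transcript, made straight from the reads. Not given in the sources used here were the aligner, the quantifier, their versions and the use of strand. Rows that name no gene (spike-ins, phiX and numbered rows) held 0.527% of counts in mouse 2 and 0.503% in mouse 1 and were left out.

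The members and gene lists were chosen with earlier results of these data known. Host genes are the longest annotated same-strand genes that contain a member. Second-quantification transcripts were summed to genes and compared on log2(TPM + 0.1) over genes that averaged 1 TPM or more. Counts of mouse 2 and mouse 1 were scaled with edgeR 4.0.16 (R 4.3.3, TMM, prior count 2) for genes that averaged 10 counts or more. Expected counts were rounded for the exact binomial test (scipy 1.17.1), which was tested on simulated data. Those data held counting error only, with known library sizes, so they check the calculation and not the calls between these mice. edgeR's quasi-likelihood test needs replicates within a side and was not run. Near-identical copies (at least 90% identity over 80% of the length) were found with BLAST 2.17.0, and pairs were aligned with Biopython 1.88. Intervals are 95%, cover counting error only and treat reads as independent molecules.

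Named members are the 10 of highest mean TPM in H/ACA and in C/D, all Cajal body members, those at least 2-fold apart between the mice, the 5 highest in the second quantification, the 3 on each side of the threshold, the members of the 4 hosts with most members, and, in each gene list, the 2 of highest mean TPM and those at least 2-fold apart. Other genes were named with their values in view. Alternatives were other scalings, count filters, prior counts, pseudocounts, thresholds, FPKM in place of TPM, the second quantification, ratios of the deposited TPM and each mouse left out.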

Additional observations from a re-analysis of the deposited data

Results flagged for a closer look

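Signal outside the genes studied was found in 1409 other genes that GENCODE M21 classes as snoRNA or scaRNA but names otherwise. Of these, 65 held over 3 counts in both mice, more than a count of 0 allows. Together those 65 held 23816 counts in mouse 2 and 34480 in mouse 1, close to the 23708 counts in mouse 2 and 32784 in mouse 1 of the 45 members. The highest in level was Gm22988, of 144 bases, at 1884 TPM in mouse 2 against 3076 TPM in mouse 1, above every member. Gm26447 stood at 1434 TPM in mouse 2 against 1500 TPM in mouse 1, and Gm22486 at 783 TPM in mouse 2 against 785 TPM in mouse 1. Rnu3b4, a U3 RNA gene, stood at 336 TPM in mouse 2 against 364 TPM in mouse 1. U3 is the most abundant C/D RNA of the nucleolus in many cells and is not covered by the Snord symbols.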

How the results depend on the processing

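The second quantification moved most values: 6 members, 0.0262% of gene counts, 0.175% of TPM, 4 members above their host, and medians of 0 TPM over all members, H/ACA and C/D and 151.8 TPM over Cajal body members. TPM on full length, chosen after seeing the data, gave 0.402% of TPM and 14 members above their host. Its medians were 8.35 (all), 8.00 (H/ACA), 50.7 (C/D) and 133 TPM (Cajal body). FPKM gave a C/D median of 160 in place of 151 TPM, and TPM rescaled to nuclear protein-coding genes an overall median of 80.5. With 1 mouse left out, medians ran over 24.8 to 28.1 TPM (all) and 23.6 to 27.8 TPM (H/ACA).

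Between the mice, with no count filter 2 members were 2-fold higher and 4 lower. With a mean of at least 100 counts, in the second quantification (5 members tested) and without members that have a copy or containing transcript (chosen after seeing the data, 11 tested), 0 were 2-fold apart and 0 passed the binomial test as higher. Under the last 2 settings, 4 and 3 passed as lower. On the deposited TPM (added after seeing the data, no test) 2 members were 2-fold higher and 1 lower. The median log2 ratio of the members was below 0 in all settings, from -0.35 to -0.02, and the median of all genes moved to 0.05 with total counts and 0.15 on the deposited TPM. Scarna10 (-0.04) passed as lower in the second quantification, at -0.23. Of the members that passed, Snora74a (-0.14) turned in sign, to 0.031 on the deposited TPM, where 5 that did not pass also turned. Of these, Scarna10 and Scarna6 turned with total counts too. The cause was not tested. No paired analysis was possible because the samples form 1 group. Depth limits members under about 100 counts, and genes of up to 100 bases cannot be read.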
